A study of Mus musculus with 13 samples.

Results

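Collagen genes were described in cultured mouse cells on 13 one-colour Agilent arrays. The members are all genes whose array features carry a single gene symbol of the form Col, a number, a and a number, with the features of a gene averaged on the log2 scale. This rule found 42 genes on 101 features, of 19087 genes in all, and 28 of the 42 had several features. They comprise 11 fibrillar chains, 8 basement membrane chains, 6 beaded filament and anchoring fibril chains, 3 short chain network chains, 9 FACIT chains (fibril-associated collagens with interrupted triple helices), 4 membrane-spanning chains and Col26a1. The rule used no measured value. It asks how matrix genes typical of fibroblasts lay in cells induced towards a hepatocyte state.

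All samples were p19Arf-null, of strain C57BL/6-129. The 3 tail-tip fibroblast (TTF) arrays and the single mouse embryonic fibroblast (MEF) array came from cells grown for 42 days in DMEM with 10% FBS. Induced hepatocyte-like (iHep) cells, on 4 arrays, were single colonies raised from TTF that had received lentiviruses for 3 liver-enriched transcription factors, sampled after 21 days. A single array, called mixed here, held the transduced TTF before any colony was picked, also at 21 days. Primary hepatocytes from p19Arf-null mice, on 4 arrays, were sampled 21 days after isolation, and like iHep they were grown in modified Block's medium. Any comparison of iHep or hepatocytes with TTF was therefore also one of culture time and medium, which cannot be told apart from the cell group. Each colony is 1 clone, a partial trypsin digest was used to enrich epithelial cells, and the labels name neither the factors nor separate animals or cultures behind the replicates. Spread among these arrays, possibly only technical between some of them, is thus all that the p-values weigh.

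Collagens are triple helices of 3 chains, wound in the endoplasmic reticulum after prolines and lysines have been hydroxylated. Fibrillar collagens are secreted as procollagens, trimmed by proteases and crosslinked into the cables of connective tissue. Type IV collagen instead forms the sheet-like mesh of basement membranes, and FACIT collagens decorate fibril surfaces. In liver, fibrillar collagen is made mainly by stellate cells and portal fibroblasts, and its build-up is fibrosis, while hepatocytes are known to express Col18a1.

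Because the members are compared as genes that move together or apart, the 250 bases before the start of 5 of them are shown. RefSeq promoter entries (build GRCm38.p6) were found for 33 of the 42 genes in 36 windows. Col1a2 and Col3a1 are fibrillar genes that were lower in iHep, Col18a1 is a basement membrane gene that was not called, and Col4a5 and Col4a6 are neighbours that start in opposite directions. The capitals mark 3 motifs, searched on both strands, and no matches overlap in the windows shown. The CCAAT box reads ATTGG when it lies on the opposite strand. The GC box was searched as GGGCGG, which on the opposite strand reads CCGCCC. The TATA box was searched as TATAAA, which on the opposite strand reads TTTATA.
Col1a2 (chr6:4505368-4505617, plus strand): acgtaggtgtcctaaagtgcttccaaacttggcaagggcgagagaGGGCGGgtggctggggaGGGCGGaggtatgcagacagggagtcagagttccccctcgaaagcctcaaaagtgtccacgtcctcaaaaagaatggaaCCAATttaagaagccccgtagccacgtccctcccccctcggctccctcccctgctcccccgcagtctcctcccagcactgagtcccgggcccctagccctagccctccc
Col3a1 (chr1:45311288-45311537, plus strand): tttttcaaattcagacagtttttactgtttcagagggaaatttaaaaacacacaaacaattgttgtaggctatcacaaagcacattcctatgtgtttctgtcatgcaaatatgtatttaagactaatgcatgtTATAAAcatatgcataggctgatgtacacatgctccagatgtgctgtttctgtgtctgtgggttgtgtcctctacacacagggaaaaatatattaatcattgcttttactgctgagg
Col18a1 (chr10:77166531-77166780, minus strand): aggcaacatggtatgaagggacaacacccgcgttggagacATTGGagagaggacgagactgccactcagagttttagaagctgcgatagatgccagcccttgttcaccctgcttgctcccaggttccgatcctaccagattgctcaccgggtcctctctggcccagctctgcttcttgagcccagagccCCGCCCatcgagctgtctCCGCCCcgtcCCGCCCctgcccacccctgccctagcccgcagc
Col4a5 (chrX:141475169-141475418, plus strand): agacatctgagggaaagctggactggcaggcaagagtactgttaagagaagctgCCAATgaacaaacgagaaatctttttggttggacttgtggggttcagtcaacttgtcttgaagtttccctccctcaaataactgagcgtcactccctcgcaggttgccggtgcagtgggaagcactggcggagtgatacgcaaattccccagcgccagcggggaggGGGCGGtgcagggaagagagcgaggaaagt
Col4a6 (chrX:141474077-141474326, minus strand): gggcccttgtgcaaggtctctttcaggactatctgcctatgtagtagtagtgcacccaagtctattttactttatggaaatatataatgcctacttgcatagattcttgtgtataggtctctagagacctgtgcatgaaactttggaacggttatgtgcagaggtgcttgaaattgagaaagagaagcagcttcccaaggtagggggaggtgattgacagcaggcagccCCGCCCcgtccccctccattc
Col1a2 held 1 CCAAT box and 2 GC boxes, Col18a1 held 1 and 3, and Col4a5 held 1 of each. Col4a6 held 1 GC box and Col3a1 only 1 TATA box. The GC box was in 21 of the 36 collagen windows (58.3%), against 32.7% of 32851 promoter windows of the same length. The CCAAT box was in 36.1% against 33.8%, and the TATA box in 13.9% against 12.4%. A match is a string of letters and not a measured binding site.

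Levels are log2 intensities minus the array's 75th percentile, so a level of 0 equals that percentile and 1 unit is a 2-fold step. A feature counted as measured above 3 times the local floor of its array. A gene counted as measured where any of its features did, while its level averages all of them, also those at background. Col19a1, for example, counted on all 13 arrays although its other features were above the limit on 0, 3 and 1. By this limit 29 of the 42 collagen genes were measured on all arrays and each of the 42 on at least 1 array. Col12a1, a FACIT chain, was measured on only 1 array, so its levels are bounds. Levels of different genes come from different probes and are not compared with each other.

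The arrays of a group fell into pairs. Rank correlations over all array features were 0.95 between iHep 1 and 2, 0.9777 between iHep 3 and 4, and 0.8861 to 0.9188 across these pairs. Hepatocyte 1 and 2 correlated at 0.9802 and hepatocyte 3 and 4 at 0.974, against 0.9399 to 0.9493 across. TTF 1 correlated at 0.9467 and 0.9465 with TTF 2 and 3, which correlated at 0.9844 with each other. Xist, the transcript of the inactive X chromosome, lay at 2.02 and 1.95 on iHep 3 and 4 and at 1.08 on the MEF array, against −9.14 to −7.1 on all others. The labels give no batch, so counts are also given without each pair. Hepatocyte markers (11 measured) summed to 134 to 504 times the 75th percentile on hepatocyte arrays and 323 to 724 on iHep arrays, all above the limit, against 0.324 to 0.991 on TTF arrays. A few bright members carried these sums, such as Fgb (7.82) on iHep 1 and Trf (8.18) and Ahsg (8.29) on iHep 3. Alb averaged 2.53 in iHep and 5.49 in hepatocytes, and Apoa2 −4.36 and −0.64, against −4.6 in TTF. Apoa1 (3.31 and 0.56) and Afp (4.87 and 3.35) were instead higher in iHep. Fibroblast markers (12 measured, no collagen among them) summed to 117 to 172 in TTF and 2.53 to 17 in iHep. On hepatocyte 1 to 4 this fibroblast sum was 11.2, 9.68, 84.5 and 73.9, with all 12 markers above the limit. Its largest members in TTF were Pdgfrb and Snai2, and its members did not all move together. Lum lay at 0.34 to 3.75 in hepatocytes, against −4.8 to −1.77 in TTF. Dcn and Fap averaged 1.11 and −4.84 in hepatocytes, against −0.67 and −6.12 in TTF, while all other members averaged lower than in TTF. Cdkn2a, the gene that encodes p19Arf, was detected at 1.6 to 2.32 in TTF, and whether its probes lie in the deleted part was not analysed here.

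In iHep most of the large collagen differences from TTF were decreases. By limma, 15 of the 42 collagen genes were lower and 1 was higher, at an adjusted p under 0.05 and a difference of at least 1 log2 unit. Among all genes tested 6.52% were lower and 6.86% higher by the same rule, against 35.7% and 2.38% of the collagen genes. The median difference of the 42 was −0.92, against 0.07 over all genes. Lower calls made up 7 of 11 fibrillar, 2 of 8 basement membrane, 2 of 6 beaded and anchoring, 2 of 3 network, 1 of 9 FACIT and 1 of 4 membrane-spanning genes. Without iHep 1 and 2 the counts were 11 lower and 2 higher (Col4a4 and Col11a2), and without iHep 3 and 4 they were 14 lower and 0 higher (Col4a4 then had an adjusted p of 0.175). Of all 19087 genes, 1995 and 1167 were lower in these fits, and 2016 and 1461 higher. The set called in every alternative held 8 of the 16, namely Col1a2, Col5a1, Col5a2, Col5a3, Col6a2, Col8a1, Col8a2 and Col16a1. In these bulk cultures fewer cells of a type and less RNA per cell cannot be told apart.

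**Figure D1:**
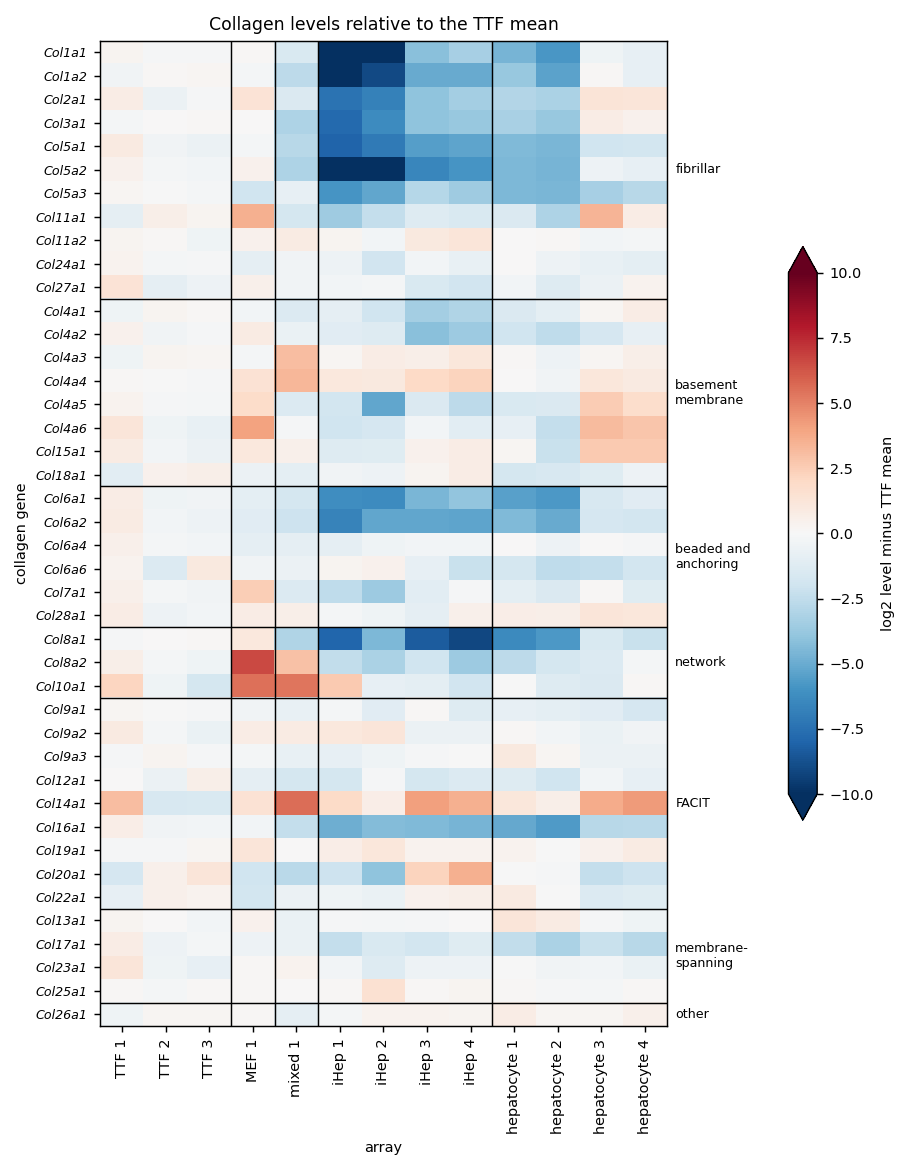
Heat map of 42 collagen genes (rows, by class) on 13 arrays (columns, by group), coloured by the log2 level minus the mean of the 3 TTF arrays. The scale ends at 10 units in either direction and larger differences have its last colour. Deep blue lies in the fibrillar rows on iHep 1 and 2, with paler blue on iHep 3 and 4 and on hepatocyte 1 and 2.

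Fibrillar collagens had the lowest median difference of the classes, −5.39, and 7 of 11 members were lower. Col5a2, a chain of type V collagen that is built into type I fibrils and limits their width, lay at 6.38, 5.77 and 5.71 on TTF 1 to 3 and at −6.71, −7.43, −0.6 and 0.09 on iHep 1 to 4. All iHep arrays were below all TTF arrays, iHep 2 was under the limit of measurement, and iHep 3 and 4 stayed far above iHep 1 and 2. The difference was −9.62 ± 1.86 (SE, n = 4 and 3, adjusted p = 0.00592). It was −6.21 without iHep 1 and 2 and −13.02 without iHep 3 and 4, and it was called both times (adjusted p = 0.00848 and 0.000304). Its partner Col5a1 lay at 4.51, 3.22 and 3.02 in TTF and at −4.45, −3.48, −1.94 and −1.72 in iHep. The Col5a1 difference was −6.48 ± 0.87 (SE, n = 4 and 3, adjusted p = 0.000696), and the arrays again did not overlap. For Col5a3, the third type V chain, the difference was −4.36 ± 0.71 (adjusted p = 0.00218), with 2 features that gave −6.92 and −1.81.

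Type I collagen, a trimer of 2 Col1a1 chains and 1 Col1a2 chain, is the main fibril of skin, tendon and bone. Col1a1 lay at 7.57, 7.16 and 7.21 on the TTF arrays and at −6.06, −3.72, 3.1 and 3.98 on iHep 1 to 4. Every iHep array was below every TTF array, but iHep 3 and 4 stood far above iHep 1 and 2. The Col1a1 difference was −7.99 ± 2.3 (SE, n = 4 and 3, adjusted p = 0.0423). Without iHep 1 and 2 it was −3.78 and no longer called (adjusted p = 0.109). The call also ended without any 1 of the 3 TTF arrays, without iHep 1, iHep 2, hepatocyte 1 or hepatocyte 4, and when the hepatocyte arrays were left out of the fit (adjusted p = 0.0792). On TTF 1 to 3 the brightest Col1a1 feature was at 100%, 89.1% and 91.6% of the highest intensity of the array. Saturation was not analysed here, and a saturated feature would make the difference too small.

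Col1a2 lay at 3.03, 3.5 and 3.61 in TTF and at −6.67, −5.65, −1.65 and −1.69 in iHep. It was lower on every iHep array, by −7.29 ± 1.5 on average (SE, n = 4 and 3, adjusted p = 0.00829). Col3a1, for the type III collagen of skin and vessel walls, was at 0.79, 0.98 and 1.11 in TTF and at −6.85, −5.3, −3.05 and −2.84 in iHep. The groups did not overlap, and the Col3a1 difference was −5.47 ± 1.26 (SE, n = 4 and 3, adjusted p = 0.0147), or −3.91 and not called without iHep 1 and 2 (adjusted p = 0.0652). The Col3a1 call was also lost without TTF 2 or TTF 3. For both genes the feature above the limit on all 13 arrays gave the larger difference, −8.3 for Col1a2 and −6.88 for Col3a1. Dimmer features, above the limit on 10 arrays for Col1a2 and on 7 and 11 for Col3a1, enter the averages with values limited by background in iHep. Over the same arrays the fibroblast marker sum was 4.25, 2.53, 17 and 11.4 on iHep 1 to 4, higher where the fibrillar collagens were higher. Its part in the result was not tested.

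Col2a1 is named for the type II collagen of cartilage, and its 12 features on the array did not behave alike. Averaged, they gave −5.39 ± 1.33 (SE, n = 4 and 3, adjusted p = 0.0207), or −3.68 and not called without iHep 1 and 2 (adjusted p = 0.0972) or without any 1 TTF array. Of the 12 features, 10 gave like values, with means of 4.46, 2.96 and 3.53 in TTF and −5.32, −4.73, −1.11 and −0.45 in iHep. Another feature stayed between −3.66 and −0.11 on all 13 arrays, and the last was above the limit on 0 of 13. The value for Col2a1 thus rests on the 10 features, and which transcript they detect was not tested.

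The other 4 fibrillar genes were not called. Col11a1, a type XI chain of cartilage fibrils, differed by −2.19 (95% interval −4.97 to 0.59), and Col11a2, its partner chain, lay 0.52 higher with an adjusted p of 0.419. The iHep and TTF arrays did not overlap for Col11a1. Its only feature above the limit on all 13 arrays gave −3.89 and was not called alone. Col24a1 and Col27a1, less common fibrillar chains, differed by −0.86 and −0.99 (adjusted p = 0.204 and 0.379). None of these intervals shows that the gene was equal in both groups.

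**Figure D2:**
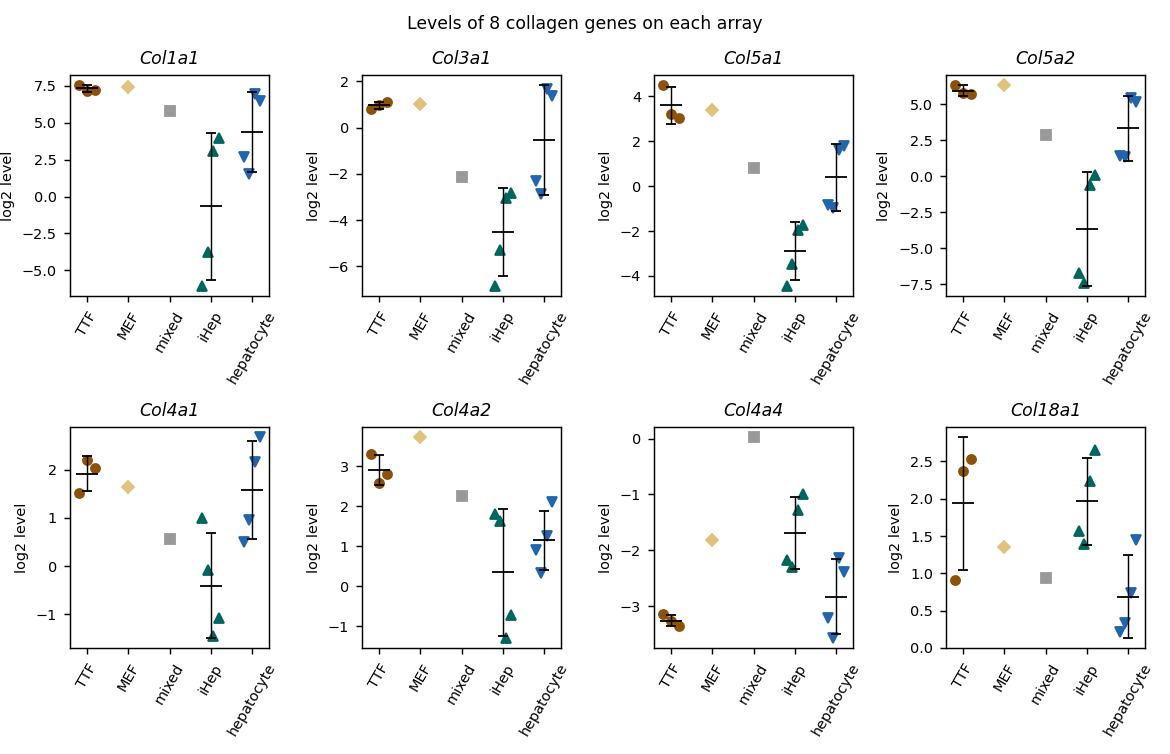
Log2 levels (y axis) of 8 collagen genes on each array by group (x axis). Points are arrays, horizontal bars are means and error bars are the SD over 3 TTF, 4 iHep and 4 hepatocyte arrays, while MEF and mixed are single arrays. For the fibrillar genes of the upper row the iHep points split into a low and a less low pair, and Col4a1 and Col4a2 split the other way.

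Among basement membrane collagens 2 of 8 were lower in iHep, 1 was higher and 5 were not called. Col4a1 and Col4a2 encode the chains of the type IV trimer found in nearly all basement membranes. Col4a2 lay at 3.32, 2.58 and 2.81 in TTF and at 1.8, 1.62, −1.31 and −0.73 in iHep. All iHep arrays were lower than TTF, but here iHep 3 and 4 were the low pair. The Col4a2 difference was −2.56 ± 0.75 (SE, n = 4 and 3, adjusted p = 0.0454). It was −3.93 without iHep 1 and 2 (adjusted p = 0.000915), but −1.2 and not called without iHep 3 and 4 (adjusted p = 0.161). In all the Col4a2 call was lost in 16 of 24 alternatives, among them each one that left out a TTF array or any hepatocyte array, or fitted only these groups (adjusted p = 0.0944). Its difference was negative in each.

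Col4a1 moved in the same way, from 1.52, 2.2 and 2.04 in TTF to 0.99, −0.09, −1.46 and −1.07 in iHep. Its difference was −2.33 ± 0.65 (SE, n = 4 and 3, adjusted p = 0.0363), −3.18 without iHep 1 and 2 and −1.47 without iHep 3 and 4 (adjusted p = 0.00689 and 0.196). The Col4a1 call was lost in 10 of 24 alternatives, among them those without any 1 TTF array. The iHep pair with more fibrillar collagen RNA had less Col4a1 and Col4a2. Smooth muscle markers (6 measured, all above the limit) were split like the type IV genes, with sums of 8.57, 12.6, 2.84 and 2.25 on iHep 1 to 4 and 181 to 245 in TTF. Their part in the result was not tested.

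Col4a4 was the only collagen called higher in iHep. With Col4a3 and Col4a5 it makes the type IV trimer of the kidney filter, the one altered in human Alport syndrome. Its levels were −3.15, −3.27 and −3.36 in TTF and −2.18, −2.3, −1.28 and −1 in iHep. Each iHep array lay above each TTF array, by 1.57 ± 0.43 on average (SE, n = 4 and 3, adjusted p = 0.0333). Col4a4 has 2 features, and the brighter one, above the limit on all 13 arrays, was not called alone (0.68, adjusted p = 0.409). The dimmer one was above the limit on only 5 arrays, the MEF and mixed arrays and iHep 1, 3 and 4, so its TTF values are bounds, and the Col4a4 call rests on averaging it in. The call was also lost without any 1 TTF array, without iHep 3, without iHep 4 and without scaling. Col4a3 was near the limit in TTF (2 of 3 arrays above it) at −8.64, −7.95 and −8.04, and lay at −7.99, −7.47, −7.64 and −7.04 in iHep. Its difference of 0.68 was not called (adjusted p = 0.225).

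The remaining chains of this class were not called. Col4a5, whose gene lies on the X chromosome, was at −0.38, −0.8 and −0.94 in TTF and at −2.54, −5.92, −2.18 and −3.29 in iHep. These arrays did not overlap, but the difference of −2.77 had an adjusted p of 0.14. Col4a6, its X-linked neighbour, was at −1.84, −3.46 and −3.75 in TTF and at −4.99, −4.67, −3.32 and −4.04 in iHep (−1.24, adjusted p = 0.588). Xist was high on only the iHep 3 and 4 arrays of these groups, and the part of X dosage was not tested. Col18a1, which gives rise to endostatin, was at 0.91, 2.37 and 2.53 in TTF and at 1.57, 1.4, 2.24 and 2.65 in iHep. The groups overlapped throughout, and the difference was 0.03 (95% interval −1.03 to 1.09). Col15a1, its relative of vessel basement membranes, differed by −0.31 (95% interval −2.68 to 2.05).

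Type VI collagen forms beaded filaments around cells. Col6a2 lay at 1.34, 0.21 and −0.01 in TTF and at −6.14, −4.7, −4.67 and −4.76 in iHep. The groups were far apart, with iHep 2, 3 and 4 close together and iHep 1 lowest. The difference was −5.58 ± 0.82 (SE, n = 4 and 3, adjusted p = 0.00122). Col6a1 lay at 4.95, 3.82 and 3.9 in TTF and at −1.96, −2.05, −0.34 and 0.3 in iHep, and was lower by −5.23 ± 1.13 on the log2 scale (adjusted p = 0.0107). Col6a1 was not called without iHep 1 and 2. Col7a1, the anchoring fibril collagen under the epidermis, was not called at −1.83 (adjusted p = 0.142), nor were Col6a4, Col6a6 and Col28a1, at −0.46, −0.58 and −0.27.

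Both type VIII genes, which form hexagonal networks under the corneal endothelium and in vessel walls, were lower in iHep. Col8a1 lay at 3.86, 4.04 and 4.09 in TTF and at −3.96, −0.47, −4.34 and −5.14 in iHep. Here iHep 2 was the highest of the 4, and no iHep array reached the TTF levels. The Col8a1 difference was −7.47 ± 1.31 (SE, n = 4 and 3, adjusted p = 0.00347), and that of Col8a2 was −2.8 ± 0.57 with 3 of 4 iHep arrays above the limit (adjusted p = 0.00791). Col10a1, of growth plate cartilage, was not called at −0.27, and was measured on only 2 of 4 iHep arrays.

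In the FACIT class only Col16a1, a fibril-associated chain of skin, was called. It lay at 1.81, 0.81 and 0.91 in TTF and at −3.68, −3.13, −3.2 and −3.44 in iHep. On this average of 2 features the 4 iHep arrays were within 1 unit of each other, and the difference was −4.54 ± 0.69 (SE, n = 4 and 3, adjusted p = 0.00155). The Col16a1 feature above the limit on all 13 arrays was more spread, at −1.85, −0.13, −0.42 and 0.08 on iHep 1 to 4, and gave −5.86. The dimmer one, above the limit on 11 arrays, gave −3.22. Col14a1, which binds the surface of type I fibrils, was spread within TTF at −1.07, −5.77 and −5.68, and lay at −2.22, −3.54, −0.07 and −0.59 in iHep. TTF 1 lay far above TTF 2 and 3, and the difference of 2.57 was not called (adjusted p = 0.262). Col20a1 split the iHep pairs, at −5.13 and −7.07 on iHep 1 and 2 against −0.82 and 0.51 on iHep 3 and 4 (difference −0.1, adjusted p = 0.979). Of the other 6 FACIT genes none was called, and apart from Col12a1, which was above the limit on 0 of 4 iHep arrays, they ranged from −0.65 for Col9a1 to 0.62 for Col19a1.

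Of the membrane-spanning collagens Col17a1, the hemidesmosome collagen of basal epidermal cells, was lower. It was dim throughout, at −4.42, −5.66 and −5.33 in TTF and at −7.56, −6.65, −6.97 and −6.37 in iHep, with 3 of 4 iHep arrays above the limit. The difference was −1.75 ± 0.39 (SE, n = 4 and 3, adjusted p = 0.0119), and with values held at the limit the call was lost. Col13a1, Col23a1 and Col25a1 were not called, at −0.08, −0.65 and 0.5. Col26a1, which belongs to none of these classes, was not called either, at 0.22.

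**Figure D3:**
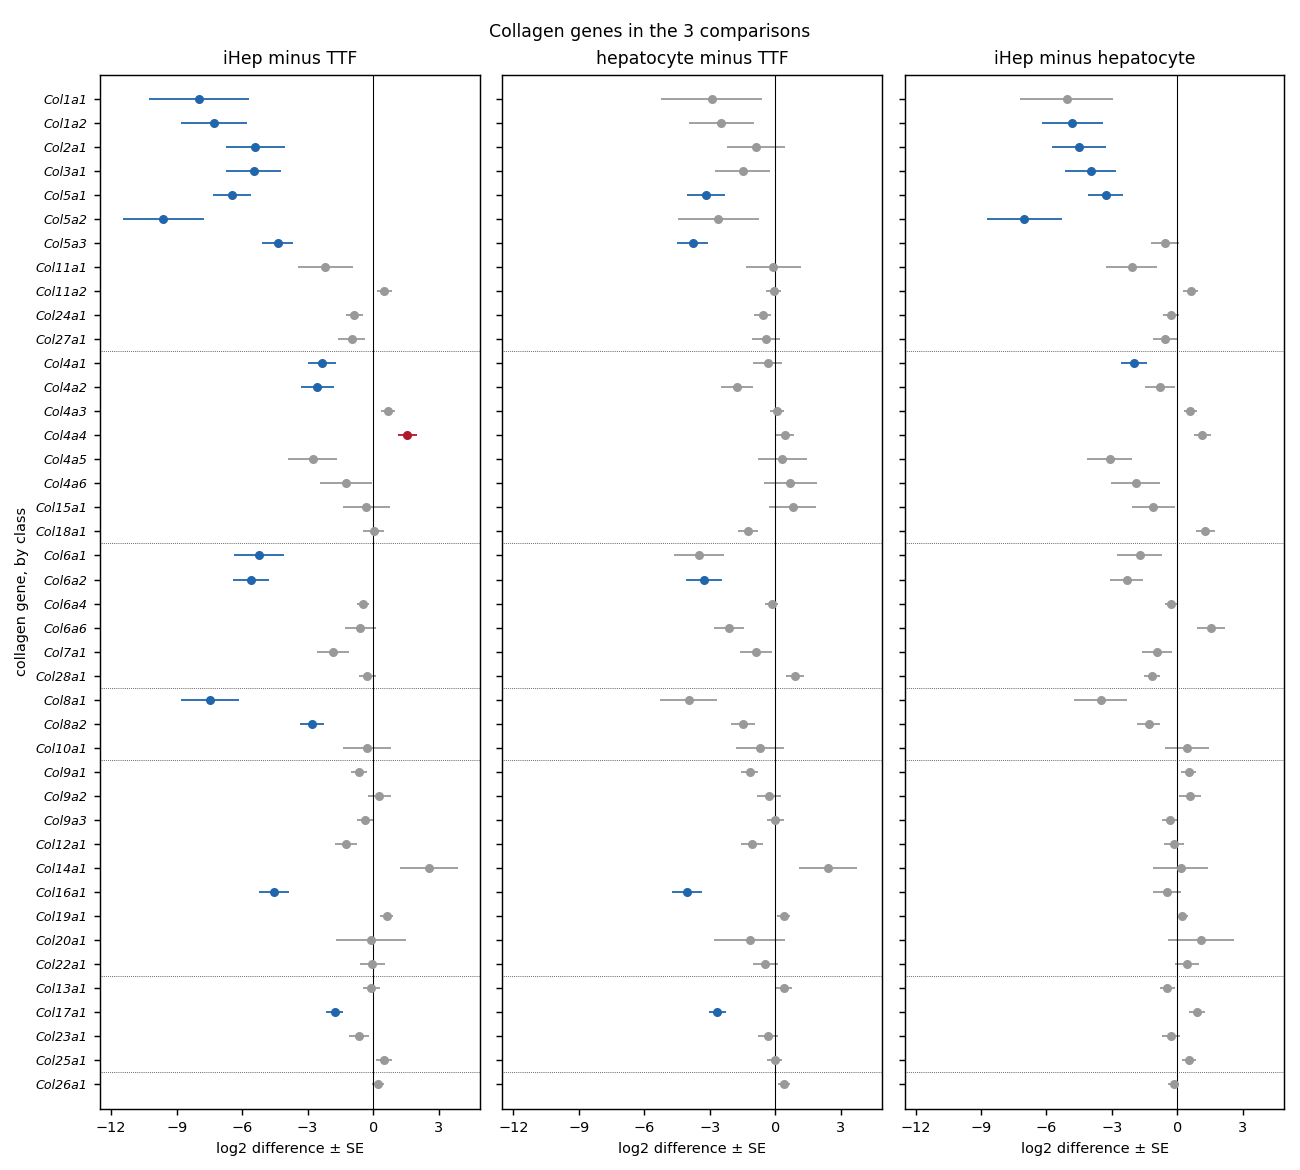
Log2 differences (x axis, points) with SE (bars) of the 42 collagen genes (y axis, by class with dotted lines between classes) in 3 comparisons from the limma fit. Blue is called lower, red called higher and grey not called. Blue points number 15, 5 and 6 from left to right, and the 1 red point is Col4a4 in iHep minus TTF.

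In cultured hepatocytes few collagen genes were called against TTF. By limma 5 of 42 were lower and 0 were higher, where 4.91% of all genes were lower and 7.47% higher. The 5 genes are 11.9% of the 42, and the median difference of the 42 was −0.63, against 0.07 over all genes. At an unadjusted p under 0.05 the counts were 12 lower and 1 higher. No share over all genes was counted at this threshold, here or in later paragraphs, so such counts have no background. Since both comparisons share the TTF arrays, each is given by its own values. The called genes were Col5a1, Col5a3, Col6a2, Col16a1 and Col17a1. Without hepatocyte 1 and 2 the counts were 2 lower and 1 higher (Col4a6), and without hepatocyte 3 and 4 they were 8 lower and 1 higher (Col13a1). Of all 19087 genes, 469 and 1278 were lower in these fits, and 797 and 1771 higher. Only Col16a1 and Col17a1 were called in every alternative. The 2 Col13a1 features went in opposite directions, with differences of −2.21 and 2.97 over all 4 hepatocyte arrays.

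Among fibrillar genes Col5a3 had the largest called decrease, at −4.84, −4.86, −3.64 and −3.08 on hepatocyte 1 to 4 against −0.11, −0.34 and −0.51 in TTF. All hepatocyte arrays were lower, by −3.79 ± 0.71 on average (SE, n = 4 and 3, adjusted p = 0.00608). Its relative Col5a1 lay at −0.83, −0.97, 1.6 and 1.76, and its difference was −3.19 ± 0.87 (SE, n = 4 and 3, adjusted p = 0.035). In the type VI filaments Col6a2 lay at −3.9, −4.54, −1.19 and −1.33, and was lower by −3.25 ± 0.82 on the log2 scale (adjusted p = 0.0262). Neither Col5a1 nor Col6a2 was called without any 1 of TTF 1, TTF 2, TTF 3, hepatocyte 1 and hepatocyte 2, and without hepatocyte 1 and 2 together Col5a3 was not called either.

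Col16a1 and Col17a1 were low on all 4 hepatocyte arrays. Col16a1 lay at −3.91, −4.49, −1.56 and −1.49, a difference of −4.04 ± 0.69 from TTF (SE, n = 4 and 3, adjusted p = 0.00385). Col17a1 lay at −7.6, −8.28, −7.39 and −7.89, a difference of −2.65 ± 0.39 (SE, n = 4 and 3, adjusted p = 0.00156), with 3 of 4 hepatocyte arrays above the limit.

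The genes of types I and III and Col5a2 were not called, and on them the hepatocyte arrays fell into a low and a high pair. Col1a1 lay at 2.68, 1.5, 6.91 and 6.48 on hepatocyte 1 to 4, so that hepatocyte 3 and 4 came close to the TTF levels of 7.16 to 7.57. The difference was −2.92 (95% interval −8.01 to 2.16). Col1a2 was at −0.43, −1.99, 3.47 and 2.57 and Col3a1 at −2.32, −2.86, 1.67 and 1.38. On hepatocyte 3 and 4 Col3a1 was above all TTF arrays, and on hepatocyte 1 and 2 it was below them. Col5a2 lay at 1.45, 1.34, 5.43 and 5.16, a difference of −2.61 (95% interval −6.71 to 1.5). With hepatocyte 1 and 2 left out, the differences from TTF were −0.62 for Col1a1, 0.56 for Col3a1 and −0.66 for Col5a2, and with hepatocyte 3 and 4 left out they were −5.22, −3.55 and −4.56. None of these 6 values was called.

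Marker RNAs of other cell types were measured on the hepatocyte arrays. The fibroblast marker sum was lower on hepatocyte 1 and 2 (11.2 and 9.68) than on hepatocyte 3 and 4 (84.5 and 73.9), as were smooth muscle markers (46.1, 24.6, 228 and 115, with 6 of 6 above the limit). Endothelial markers (12 measured, 11 or 12 above the limit) summed to 6.82, 6.48, 1.48 and 4.67, against 0.161 to 0.46 in TTF and 0.509, 0.374, 1.84 and 2.43 on iHep 1 to 4. Single markers are named here after their values were seen. Cdh5 lay at 0.25 and 0.82 on iHep 3 and 4, while Emcn was above the limit on 4 of 4 hepatocyte arrays and on 0 of the TTF and iHep arrays. Macrophage and leukocyte markers (8 measured, all above the limit) summed to 89, 60.6, 12 and 23.2, against 0.773 to 0.984 in TTF and 13.3, 33.1, 16 and 22.9 in iHep, with 3 to 7 of 8 above the limit there. Cd14 lay at 3.72 to 5.04 in iHep and accounted for nearly all of that sum, while Tyrobp lay at −6.67 to −6.35 in iHep and at 1.33 to 4.48 in hepatocytes. Hepatic stellate cell markers (10 measured, all above the limit) summed to 3.44, 3.25, 3.89 and 5.58, against 3.87 to 10.3 in TTF and 1.22 to 4.73 in iHep. In TTF and hepatocytes the largest member of that sum was Ecm1, and its members did not move together. Lrat lay at −2.86, −1.18, −2.37 and −0.06 in hepatocytes and between −8.75 and −7.42 in TTF and iHep, where only 1 array of each group was above the limit. Des (−2.57 to 0.4), Reln (−5.15 to −0.67) and Hand2 (−3.81 to −2.31) were likewise above all TTF and iHep arrays on each hepatocyte array. On the MEF array, however, Des (2.3) was above all hepatocyte arrays and Hand2 (−2.47) was inside their range. Ngfr and Rgs5 were above all TTF arrays but overlapped iHep. Hgf (−4.26 to −2.55) and Ecm1 (0.84 to 1.6) were below all TTF arrays. Pth1r averaged −3.43, against −2.11 in TTF, and Gfap overlapped TTF. Which cells made these marker RNAs, and their part in the collagen levels, was not tested.

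Basement membrane collagens had 0 of 8 calls in hepatocytes, in either direction, with 2 lower and 0 higher at an unadjusted p under 0.05. Col4a1 lay at 0.49, 0.96, 2.15 and 2.68 (difference −0.35, adjusted p = 0.785) and Col4a2 at 0.9, 0.33, 1.25 and 2.11 (difference −1.76, adjusted p = 0.153). Col4a3 was at −8.1, −8.69, −8.05 and −7.66, and Col4a4 at −3.21, −3.58, −2.14 and −2.39. Col4a4 overlapped TTF, with a difference of 0.43 (95% interval −0.52 to 1.37). Col4a5 and Col4a6 split the pairs widely, at −2.21, −2.19, 1.81 and 1.05 for Col4a5 and at −3.85, −5.39, 0.17 and −0.25 for Col4a6. Hepatocyte 3 and 4 were above every TTF array for both genes and hepatocyte 1 and 2 below. The brightest Col4a6 feature did not split so, at −0.89, −0.99, −0.28 and −0.24, inside the TTF range of −1.23 to 0. Col18a1 lay at 0.22, 0.33, 0.74 and 1.45, a difference of −1.25 that was not called (95% interval −2.31 to −0.19, adjusted p = 0.113).

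Set directly against hepatocytes, iHep had lower levels of several fibrillar genes. By limma 6 of 42 collagen genes were lower in iHep (7.5% of all genes) and 0 were higher (6.25% of all genes). The 6 genes are 14.3% of the 42, and the median difference of the 42 was −0.48, against −0.02 over all genes. At an unadjusted p under 0.05 the counts were 12 lower and 4 higher, again with no background over all genes. Fibrillar genes gave 5 of the 6 calls, Col1a2, Col2a1, Col3a1, Col5a1 and Col5a2, and Col4a1 was the other. None of the 6 was called in every alternative. Without hepatocyte 3, or without hepatocyte 4, 0 were called in either direction by limma (10 and 11 lower, 3 and 4 higher at an unadjusted p under 0.05). Over all genes 1175 and 1283 were called lower in these fits, and 941 and 1015 higher.

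Col5a2 had the largest called difference, −7.01 ± 1.72 (SE, n = 4 and 4, adjusted p = 0.0215). Its iHep levels of −7.43 to 0.09 all lay under the hepatocyte levels of 1.34 to 5.43. Without hepatocyte 3 and 4 the Col5a2 difference was −5.06 and without iHep 1 and 2 it was −3.6, and neither was called (adjusted p = 0.137 and 0.0592). Col1a2 differed by −4.82 ± 1.39 (SE, n = 4 and 4, adjusted p = 0.0405), although iHep 3 and 4 (−1.65 and −1.69) were above hepatocyte 2 (−1.99). Col3a1 differed by −3.98 ± 1.16 (SE, n = 4 and 4, adjusted p = 0.0432), with iHep 4 (−2.84) just above hepatocyte 2 (−2.86). On the Col3a1 feature above the limit on all 13 arrays, iHep 4 (4.52) was instead just below hepatocyte 2 (4.58). With the brightest probe per gene the calls of Col1a2, Col3a1 and Col4a1 were lost. Col1a1 was not called at −5.07 (95% interval −9.78 to −0.36, adjusted p = 0.135). Over the same arrays the fibroblast marker sum was 2.53 to 17 in iHep and 9.68 to 84.5 in hepatocytes, and its part was not tested.

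Col4a1 differed by −1.98 ± 0.6 (SE, n = 4 and 4, adjusted p = 0.0493), with iHep 1 at 0.99 inside the hepatocyte range. The Col4a1 call was lost without iHep 3 and 4 (−1.12, adjusted p = 0.271) and without hepatocyte 3 and 4 (−1.13, adjusted p = 0.263). Col18a1 was 1.28 higher in iHep and Col4a4 was 1.14 higher, neither called (adjusted p = 0.0787 and 0.0794). Without iHep 1 and 2 the counts against hepatocytes were 3 lower and 4 higher, and without iHep 3 and 4 they were 7 lower and 1 higher. Without hepatocyte 1 and 2 they were 14 lower and 0 higher, and without hepatocyte 3 and 4 they were 1 lower and 1 higher. In the same fits, in this order, 2218, 1238, 991 and 1466 of all 19087 genes were lower, and 1922, 1506, 774 and 1096 higher.

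The mixed culture was a single array, so its values have no replicate. Against the TTF mean, 8 collagen genes were lower and 5 higher on it by at least 2 log2 units and outside the TTF range (3.67% and 6.49% of all genes). Lower were Col1a2 (0.77), Col3a1 (−2.14), Col5a1 (0.78), Col5a2 (2.88), Col6a2 (−1.57), Col8a1 (1), Col16a1 (−1.17) and Col20a1 (−5.7). Each of the first 7 lay between the TTF levels and all 4 iHep levels, and Col1a1, at 5.76, did so too. Col1a2 and Col3a1 passed the 2-unit rule only with dimmer features averaged in. On their features above the limit on all 13 arrays they were lower by less than 2 units. Col1a2 lay at 6.81 there, against 8.1 to 8.34 in TTF, and Col3a1 at 6.17, against 7.79 to 7.81. Higher were Col14a1 (1.45), Col10a1 (−1.37), Col4a4 (0.03), Col4a3 (−5.15) and Col8a2 (−0.17). For Col14a1, Col10a1, Col4a3, Col4a4 and Col8a2 the mixed level was above every TTF, iHep and hepatocyte array. The Col4a4 result rests on its dimmer feature, above the limit on only 5 arrays. Its brighter feature, above the limit on all 13 arrays, lay at 1.75 on the mixed array, inside the TTF range of 0.87 to 2.22. The mixed culture had a fibroblast marker sum of 25.7 and a hepatocyte marker sum of 388, so both kinds of RNA were present.

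The MEF array resembled TTF in most fibrillar genes. Col1a1 was at 7.43, Col1a2 at 3.16, Col3a1 at 1.03 and Col5a1 at 3.39, which differed from the TTF mean by 0.12, −0.22, 0.06 and −0.19. By the same rule 5 collagen genes were higher on it and 1 was lower (4.02% and 2.04% of all genes). Col8a2 was at 3.46, 6.6 above the TTF mean, and Col10a1 at −1.16, 5.53 above. Col4a6 (0.97), Col11a1 (−0.51) and Col7a1 (2.59) were also higher, by 3.99, 3.55 and 2.44, and Col5a3 (−2.34) differed by −2.01. On the brightest Col4a6 feature the MEF array, at −0.22, lay inside the TTF range of −1.23 to 0. Smooth muscle markers on the MEF array summed to 339, above the 181 to 245 of TTF.

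Several collagen genes lie side by side in the genome. In the RefSeq mouse gene table (GRCm38.p6) no protein-coding gene lies between Col4a1 and Col4a2, Col4a3 and Col4a4, Col4a5 and Col4a6, Col3a1 and Col5a2, or Col6a1 and Col6a2. The starts of Col4a1 and Col4a2 are 21 bases apart and point away from each other, and those of Col4a5 and Col4a6 are 1343 bases apart. Col4a1 and Col4a2 were both low on iHep 3 and 4, but Col4a2 was 0.9 on hepatocyte 1 and 1.25 on hepatocyte 3 where Col4a1 was 0.49 and 2.15. Col4a5 and Col4a6 had their highest levels on the same 3 arrays, MEF (1.14 and 0.97), hepatocyte 3 (1.81 and 0.17) and hepatocyte 4 (1.05 and −0.25). The brightest Col4a6 feature was instead highest on iHep 2 (0.61). Col4a3 and Col4a4 shared their highest array, the mixed culture (−5.15 and 0.03). On the Col4a4 feature above the limit on all 13 arrays, the highest was instead hepatocyte 4 (3.15). Col3a1 and Col5a2 were both lowest on iHep 1 and 2, but Col3a1 was as low on hepatocyte 1 and 2 (−2.32 and −2.86) as on iHep 3 and 4 (−3.05 and −2.84), where Col5a2 lay at 1.45 and 1.34 against −0.6 and 0.09. Col6a1 and Col6a2 both placed the 3 TTF arrays on top, then MEF. The points share arrays and scaling, so these are descriptions with no test.

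**Figure D4:**
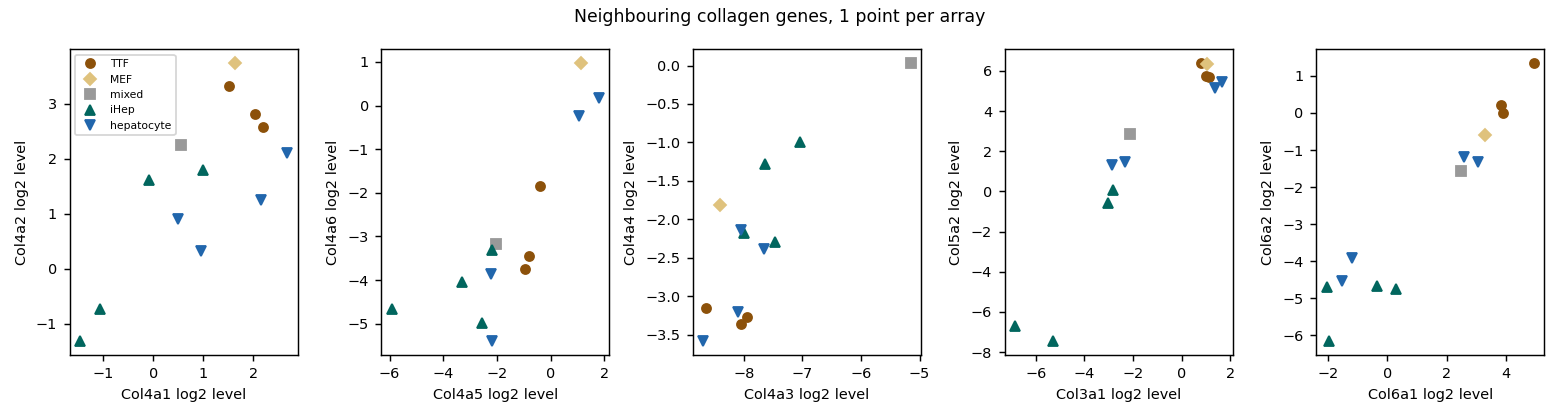
Log2 levels of 5 pairs of neighbouring collagen genes, with 1 gene on each axis and 1 point per array, coloured by group. Col3a1 and Col5a2 line up from iHep 1 and 2 at the lower left to TTF at the upper right. For Col4a5 and Col4a6 the MEF array and hepatocyte 3 and 4 stand apart at the upper right.

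Genes that make, trim, crosslink, bind and cut collagen were set beside the members, 47 of which were measured. In iHep 14 were lower and 2 higher than in TTF, and in hepatocytes 7 were lower and 5 higher. Against hepatocytes, 8 were lower and 4 higher in iHep. The background for each comparison is as given for the collagen genes.

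Among genes of chain modification and folding, 2 of 19 were lower and 1 was higher in iHep. P4hb, the prolyl hydroxylase beta subunit, and Serpinh1, the collagen chaperone Hsp47, were named after their values were seen, and their differences of 0.16 and −1.77 were not called (adjusted p = 0.848 and 0.196). P3h3, a prolyl 3-hydroxylase, lay at 4.37, 3.78 and 3.79 in TTF and at −0.3, 0.15, 0.94 and 1.37 in iHep, a difference of −3.44 ± 0.82 (SE, n = 4 and 3, adjusted p = 0.0182). Plod1, a lysyl hydroxylase, was lower in iHep and in hepatocytes on every array. Its levels were 1.09, 1.23 and 1.52 in TTF, −1.32, −1.39, −1.34 and −0.83 in iHep, and −0.84, −1.36, −1.14 and −0.87 in hepatocytes. The Plod1 differences from TTF were −2.5 ± 0.25 for iHep (n = 4 and 3, adjusted p = 0.000129) and −2.33 ± 0.25 for hepatocytes (n = 4 and 3, adjusted p = 0.000262). Colgalt2, which adds galactose to hydroxylysine, was above the limit on 0 of 3 TTF and 3 of 4 iHep arrays, at −3.96 and −3.01 on iHep 3 and 4. It was at least 4.3-fold higher in iHep than in TTF (adjusted p = 0.0345), and it was also called higher in iHep than in hepatocytes (adjusted p = 0.0381), where only 1 of 4 arrays was above the limit, so the size of that difference is not exact.

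Propeptide cleavage and crosslinking had 6 of 12 genes lower in iHep and 0 higher. Lox, the lysyl oxidase that starts crosslinking, lay at 6.76, 5.75 and 6.13 in TTF and at −6.48, −3.82, −1.15 and −0.59 in iHep. All iHep arrays were far below TTF, with iHep 1 and 2 lowest as for the fibrillar genes. The Lox difference was −9.22 ± 1.31 (SE, n = 4 and 3, adjusted p = 0.00102). Its relative Loxl1 was lower by −7.73 ± 1.62 on the log2 scale (adjusted p = 0.00911), and Loxl3, Pcolce, Loxl4 and Bmp1 were also called. Against hepatocytes, where Lox lay at 1.75, 1.09, 4.27 and 4.26, the difference of iHep was −5.85 ± 1.22 (n = 4 and 4, adjusted p = 0.0102). Loxl4 was lower than in hepatocytes by −4.12 ± 0.43 (adjusted p = 0.00025), with 2 of 4 iHep arrays above the limit.

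Hepatocytes had 1 of these 12 genes lower and 1 higher than TTF. Loxl3 lay at −4.81, −4.78, −3.63 and −3.87, against 1.22, 1.43 and 1.84 in TTF. The Loxl3 difference was −5.77 ± 0.35 (SE, n = 4 and 3, adjusted p = 6e-06), and every hepatocyte array was low. Pcolce2, a procollagen protease enhancer, was at 1.1, −0.25, 2.5 and 2.38 in hepatocytes and at −0.18, −5.59 and −5.85 in TTF. TTF 1 thus overlapped the hepatocytes, and the difference was 5.31 ± 1.22 (n = 4 and 3, adjusted p = 0.0174).

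**Figure D5:**
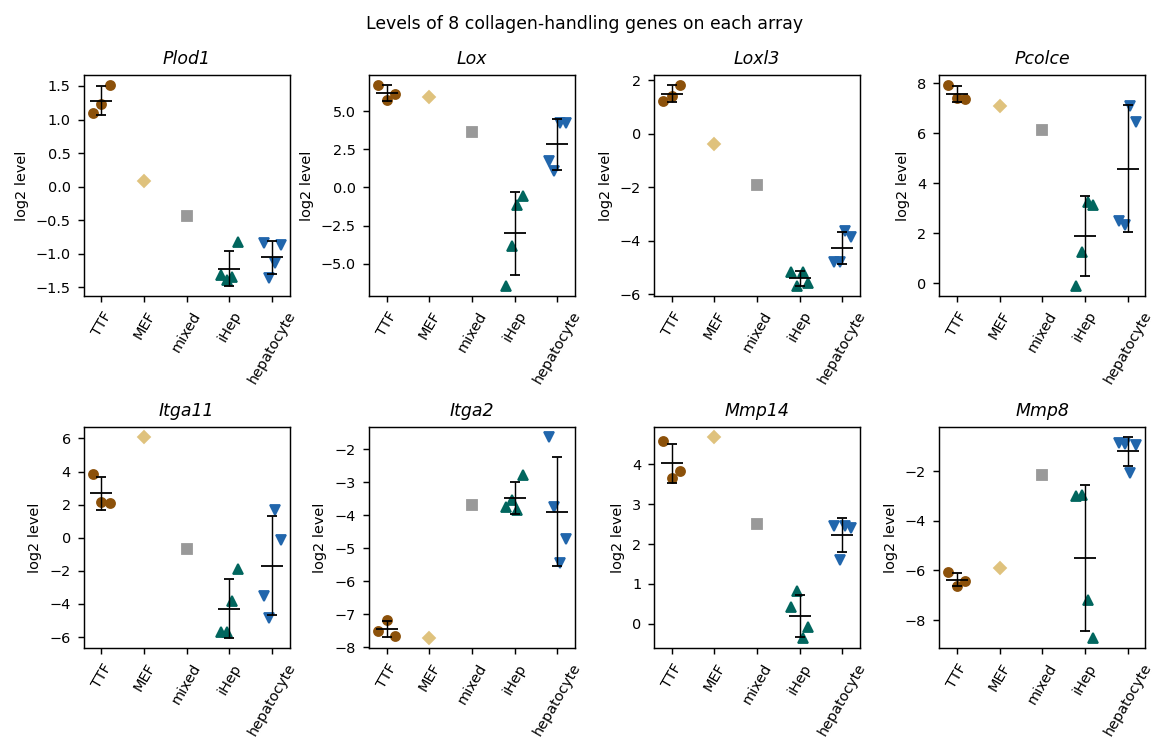
Log2 levels (y axis) of 8 genes that modify, crosslink, bind or cut collagen, on each array by group (x axis). Points are arrays, horizontal bars are means and error bars are the SD over 3 TTF, 4 iHep and 4 hepatocyte arrays. Plod1 and Loxl3 are low on all iHep and hepatocyte arrays, whereas Mmp8 is high on the 4 hepatocyte arrays, the mixed array and iHep 1 and 2.

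Collagen receptors moved in both directions. In iHep 3 of 9 were lower than in TTF and 1 was higher, and in hepatocytes 2 were lower and 3 higher. Itga2, the integrin alpha2 chain through which epithelial cells and platelets bind collagen, lay at −7.52, −7.17 and −7.66 in TTF and at −3.76, −3.53, −3.84 and −2.77 in iHep. The Itga2 difference was 3.97 ± 0.73 for iHep (n = 4 and 3, adjusted p = 0.00459) and 3.56 ± 0.73 for hepatocytes (n = 4 and 3, adjusted p = 0.0103). Itga11, the fibroblast collagen integrin, lay at 3.84, 2.14 and 2.07 in TTF and at −5.67, −5.69, −3.85 and −1.9 in iHep (−6.96 ± 1.47, n = 4 and 3, adjusted p = 0.00954). Mrc2, an uptake receptor for cleaved collagen, was lower by −5.58 ± 0.81 in iHep and −4.58 ± 0.81 in hepatocytes (adjusted p = 0.00111 and 0.00445).

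Ddr1 and Ddr2 are receptor kinases for collagen. Ddr2 was lower in hepatocytes than in TTF (−3.29 ± 0.63, n = 4 and 3, adjusted p = 0.00697). Against hepatocytes iHep had more of both, by 2.48 ± 0.7 for Ddr1 and 2.19 ± 0.58 for Ddr2 (n = 4 and 4, adjusted p = 0.0378 and 0.03). Lair1, an inhibitory leukocyte receptor, lay at −2.3, −3.17, −6.41 and −5.75 in hepatocytes and between −8.8 and −6.97 in TTF and iHep. The leukocyte marker sum had the same order on the hepatocyte arrays, and its part was not tested. Lair1 was higher than in TTF by 3.58 ± 0.89 (n = 4 and 3, adjusted p = 0.0245) and lower in iHep than in hepatocytes by −3.64 ± 0.82 (n = 4 and 4, adjusted p = 0.0148). Itga1 was also lower in iHep than in hepatocytes (−2.21 ± 0.65, adjusted p = 0.0447).

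Proteases that cut collagen had 3 of 7 members lower in iHep and 0 higher. Mmp2, gelatinase A, lay at 4, 3.16 and 3.4 in TTF and at −9.1, −7.47, −1.29 and −0.1 in iHep, with 2 of 4 iHep arrays above the limit. The Mmp2 difference was −8.01 ± 2.09 (SE, n = 4 and 3, adjusted p = 0.0273). Ctsk, cathepsin K, which cuts within the triple helix, was lower by −3.92 ± 0.61 in iHep and −3.21 ± 0.61 in hepatocytes (adjusted p = 0.00177 and 0.00688). Mmp14, the membrane-bound collagenase, was lower in iHep than in TTF (−3.83 ± 0.37, adjusted p = 0.000102) and than in hepatocytes (−2.04 ± 0.35, adjusted p = 0.00378). Mmp8, the neutrophil collagenase, was at −0.89, −0.93, −2.09 and −0.94 in hepatocytes and at −6.08, −6.62 and −6.42 in TTF, 5.16 ± 1.23 higher (n = 4 and 3, adjusted p = 0.0204). On iHep 1 and 2 Mmp8 lay at −3.02 and −2.98 and on iHep 3 and 4 at −7.21 and −8.74, and iHep was lower than hepatocytes by −4.28 ± 1.14 (n = 4 and 4, adjusted p = 0.0303). The leukocyte marker sum was 12 to 89 in hepatocytes, 13.3 to 33.1 in iHep, carried there by Cd14, and 0.773 to 0.984 in TTF, and its part in Mmp8 was not tested. Mmp13, collagenase 3, was lower in hepatocytes than in TTF (−2.83 ± 0.64, n = 4 and 3, adjusted p = 0.0163).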

How the data were processed

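One-colour Agilent arrays of total RNA (Trizol, Cy3) were analysed for 13 samples, grouped by their labels. The values are linear intensities, as deposited, made with Agilent Feature Extraction 10.5.1.1 per the submitters' processing notes; background handling is not given in the sources used here. Of 45018 features, 33653 carry 1 gene symbol in the platform annotation, 56 several and 11309 none. Features of a gene were averaged as log2 intensity minus the array's 75th percentile, which gave 19087 genes. The limit of measurement was 3 times the lowest value among 101 neighbouring features. Scanner flags and saturation were not analysed here, and the number of arrays limits the precision.

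The TTF, iHep and hepatocyte arrays (11) were fitted together with limma 3.58.1 in R 4.3.3, and p-values were adjusted over every gene by Benjamini-Hochberg. Genes at an adjusted p under 0.05 that differed by at least 1 log2 unit were called. MEF and mixed, with 1 array each, were set against the TTF mean with no test. Fold bounds set a gene under the limit at that limit. The fit was tested on simulated data. Python 3.11.15, pandas 2.3.3 and numpy 2.4.6 were used for the rest.

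Alternatives changed the scaling, probe rule, floor, filter, groups fitted, variance model, replicate block and arrays. Members, lists and tests were chosen with earlier results of these data known. Per-array values are given for the called genes with the largest change in each class and comparison, the type IV chains, genomic neighbours and, per partner list, up to 2 called increases and 2 called decreases; other genes stand as counts, ranges or short values chosen after they were seen.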

Additional observations from a re-analysis of the deposited data

Results flagged for a closer look

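Within groups of 4 arrays, 81 gene and group combinations were tested for 1 array far from the other 3, by Dixon's ratio at its 95% critical value, and 3 exceeded it. Chance gives about 1 in 20 such groups. Col6a2, a type VI chain, was at −6.14 on iHep 1, with the other iHep arrays between −4.76 and −4.67. Col25a1, a membrane-spanning collagen of neurons, was at −6.06 on iHep 2, with the others between −7.5 and −7.27. The lowest intensity on iHep 2 was 10.1, against 3 to 3.71 on the other iHep arrays, and 1 of the Col25a1 features, above the limit on 0 arrays, was highest on iHep 2 too, so a feature at background enters this value. Col26a1 was at −7.88 on iHep 1, with the others between −7.41 and −7.35.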

How the results depend on the processing

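Over the alternatives, single collagen genes stayed on the same side of the threshold in 2825 results, lost the call in 127 and gained it in 69. No called difference changed sign, but some uncalled ones did, such as Col4a6 in iHep against TTF, from −1.24 to 0.4 with the brightest probe. For iHep against TTF, 1 gene was called higher, but 0 without scaling, with the brightest probe or without iHep 3 and 4, and 2 without iHep 1 and 2, which also raised the calls over all genes from 2553 to 4011. With 1 array left out, 0 to 1 were higher and 10 to 14 lower, with 1511 to 2750 calls over all genes and 13 to 17 among partner genes. For hepatocytes against TTF, 0 were higher, but 2 with the brightest probe and 1 without hepatocyte 1 and 2 or hepatocyte 3 and 4. The 5 lower became 10 with median scaling, 3 with the brightest probe, 8 with only these groups fitted, without iHep 1 and 2, without iHep 3 and 4 or without hepatocyte 3 and 4, and 2 without hepatocyte 1 and 2, where calls over all genes went from 2363 to 1266. With 1 array left out, 0 to 0 were higher and 3 to 7 lower, with 1181 to 2541 calls over all genes and 7 to 17 among partner genes. For iHep against hepatocytes, 0 were higher, but 2 with median scaling or the replicate block, 4 without iHep 1 and 2, and 1 without iHep 3 and 4 or hepatocyte 3 and 4. The 6 lower became 3 without scaling or without iHep 1 and 2, 1 with only these groups fitted or without hepatocyte 3 and 4, and 14 without hepatocyte 1 and 2. Calls over all genes went from 2624 to 4140 without iHep 1 and 2, and the 12 partner calls to 6 with only these groups fitted and 7 without iHep 3 and 4. With 1 array left out, 0 to 1 were higher and 0 to 6 lower, with 1867 to 2896 calls over all genes and 6 to 11 among partner genes. On the MEF array 2 collagen genes were lower with median scaling and 0 with quantile normalization, in place of 1. Where fewer arrays were fitted the estimate of spread changed with them; otherwise the cause was not tested. Median scaling moved the median difference of all genes from 0.07 to −0.33 for hepatocytes against TTF and from −0.02 to 0.22 for iHep against hepatocytes. The share of calls that were higher moved from 60.3% to 34.1% (49.3% with quantile normalization) and from 45.4% to 64.5%. Same-numbered arrays did not deviate together (correlations −0.056 to 0.111), so the numbers were not taken as pairs. With the replicate block 14, 7 and 7 collagen genes were called in the 3 comparisons, in place of 16, 5 and 6.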
